A study of Mus musculus with 6 samples.

Results

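Some probe sets of a gene array carry more than 1 gene name in the annotation, as can happen when probes match transcripts of several genes. No probe was aligned here, so which transcripts the probes of a set match was not tested. A total of 931 probe sets had 2 or more symbols in the array's annotation, after sets that name a T cell receptor segment were left out. Of these, 154 (16.5%) spanned at least 1 on the log2 scale over the 6 arrays, and these 154 variable multi-gene probe sets are described here. They are 154 of 45101 probe sets in all. Among probe sets with exactly 1 symbol, 5485 of 34945 (15.7%) spanned as much. The members were chosen by this span of measured values, which grows with any difference between the groups, so counts of differing members describe the set and give no support of their own. Just inside the limit lay the Gm44504;Ubl4a (1.00), Gpr137b-ps;Gpr137b (1.01), Ipo4;Tm9sf1 (1.01) and H2-DMb2;H2-DMb1 (1.03) probe sets. Just outside lay AI987944;AW146154 (0.997), Gm29753;Eef1g (0.995), Gm2036;1810037I17Rik (0.993) and Gm21992;Rbm4 (0.990).

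Multigene families arise by gene duplication, and their younger copies can differ in few bases of the transcript. Processed pseudogenes are copies of spliced transcripts that were written back into the genome, often far from the parent gene. Families that face pathogens, such as MHC class I genes, NK receptor genes and interferon-induced genes, hold many such copies in the mouse and differ in number and sequence between strains. Which of its genes gives the signal of such a probe set was not tested. Each value below therefore belongs to the named set of genes and not to 1 of them.

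The samples were mouse T cells labelled as clones, and every group was grown with its own antigen, antigen-presenting cells and IL-2. The 3 arrays titled 2D11 (replicates 1, 2 and 4) are labelled CD8aa Tregs, which the series describes as Qa-1-restricted regulatory cells; Qa-1 is a nonclassical class I molecule. The 3 arrays titled OvacD8 (replicates 1, 2 and 3) are labelled as OT-1 cells that carry CD8aa and an alpha beta receptor. OT-1 is a transgenic receptor for an ovalbumin peptide. The labels used here give no mouse strain, age or batch, and do not say whether replicates were separate cultures, so the p-values speak only of the spread among these 6 arrays, part or all of which can be technical.

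Values are RMA values, treated here as log2, that were centred on each probe set's median over the 6 arrays. The level of a probe set was thereby removed, so a value says how an array stood against the others and not whether the signal was bright. The difference is 2D11 minus OvacD8, with the standard error of the fit (n = 3 per group). The limma fit ran over 45037 probe sets, and a member passed at a Benjamini-Hochberg adjusted p under 0.05 over all of them.

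OvacD8 replicate 1 stood apart from the other OvacD8 arrays. Over the members, OvacD8 replicates 2 and 3 correlated at 0.92 with a median absolute difference of 0.18, while replicate 1 correlated with each of them at 0.31, with median differences of 0.67 and 0.68. The 2D11 arrays correlated with each other at 0.63 to 0.87. The mean of 27 probe sets for the spike-in controls, bacterial transcripts added to follow labelling, was 0.44 on OvacD8 replicate 1 and -0.09 to 0.73 on the 2D11 arrays. It was -1.41 and -2.13 on OvacD8 replicates 2 and 3. Results are therefore given without OvacD8 replicate 1, or from a split-adjusted fit that holds the 2 sides of the spike-in controls as a covariate, where either changes the call of a member described below. Without that array, group and split cannot be told apart. In the split-adjusted fit that array alone stands for OvacD8 beside the 2D11 arrays.

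Marker genes were set beside the labels. Among 13 probe sets of 8 T cell markers, the gene of the CD8 beta chain, Cd8b1, was lower (-2.36, adjusted p = 0.00142). Of 5 probe sets of Cd8a, 1444078_at was higher (0.85, adjusted p = 0.00814). The others did not pass, although 1440811_x_at stood at -2.40 (adjusted p = 0.0636) with groups that did not overlap. B cell markers (6 probe sets) and the NK cell markers Ncr1 and Nkg7 (2 probe sets) each spanned less than 1. The NK cell marker Klrb1c had no probe set of its own. It is named with Klrb1b by a member described below, which stood at -0.93 (adjusted p = 0.0518). Of 11 probe sets of macrophage and dendritic cell markers, 8 spanned at least 1 and 1 passed, H2-Ab1 on 1450648_s_at (-2.95, adjusted p = 0.00816). The mean of all 11 lay between -0.24 and -0.23 on the 2D11 arrays, at 0.98 on OvacD8 replicate 1, and at 0.44 and 0.46 on OvacD8 replicates 2 and 3. It averages markers that went different ways. Lyz2 and Cd74 were highest on OvacD8 replicate 1, at 2.70 and 2.15, while Cd68 stood at 0.48 there and at 3.34 and 3.44 on OvacD8 replicates 2 and 3, and Cd14 at 0.20 against 0.66 and 0.75. Because levels were removed, no marker can be called absent.

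The 154 probe sets carried 350 distinct symbols in 126 distinct combinations. A total of 95 had 2 symbols and 59 had 3 or more, up to 18. A further tie runs among the members, since 67 shared a symbol with another member and are not independent of it. The genes lay apart on the same chromosome for 84 probe sets, on different chromosomes for 42, and overlapped each other for 20, with 8 not fully placed. Of 146 probe sets whose genes were all in RefSeq, 94 held 2 or more protein-coding genes and 43 held exactly 1, of which 40 paired it with a pseudogene. A total of 9 held no protein-coding gene. The suffix of the probe set name was _at for 81 of the 154, _a_at for 30, _s_at for 25 and _x_at for 18.

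Promoters are shown for 5 genes whose members the results turn on: H2-K1 and H2-T23, class I genes named by shared probe sets with opposite differences, the relatives Trim34a and Trim34b, and Isg15. Interferon-induced genes are known for a promoter element, the interferon-stimulated response element, and the letters GAAANNGAA and GAANNGAAA were searched on both strands as stretches that resemble it. The sequences run 5′ to 3′ on the strand of the gene, from 250 bases before to 50 bases after the start of the gene, from RefSeq (GRCm38.p6), and capitals mark every match of either stretch.
H2-K1 promoter: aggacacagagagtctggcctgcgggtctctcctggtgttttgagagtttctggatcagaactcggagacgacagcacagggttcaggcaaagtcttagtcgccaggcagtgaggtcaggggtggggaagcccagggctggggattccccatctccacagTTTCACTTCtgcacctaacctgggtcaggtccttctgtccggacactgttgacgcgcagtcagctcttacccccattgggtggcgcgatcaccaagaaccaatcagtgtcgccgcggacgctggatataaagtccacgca
H2-T23 promoter: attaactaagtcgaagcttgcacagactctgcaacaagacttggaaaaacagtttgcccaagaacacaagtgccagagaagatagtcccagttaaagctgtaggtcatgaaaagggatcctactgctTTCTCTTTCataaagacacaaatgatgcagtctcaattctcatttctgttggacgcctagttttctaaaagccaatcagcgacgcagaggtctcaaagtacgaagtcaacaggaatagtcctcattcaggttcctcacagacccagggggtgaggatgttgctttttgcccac
Trim34a promoter: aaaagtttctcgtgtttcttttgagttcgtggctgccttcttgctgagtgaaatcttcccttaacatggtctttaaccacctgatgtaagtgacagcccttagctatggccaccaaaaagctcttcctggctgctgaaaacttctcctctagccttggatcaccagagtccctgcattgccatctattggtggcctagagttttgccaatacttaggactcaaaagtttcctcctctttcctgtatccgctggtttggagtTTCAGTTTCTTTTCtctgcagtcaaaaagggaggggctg
Trim34b promoter: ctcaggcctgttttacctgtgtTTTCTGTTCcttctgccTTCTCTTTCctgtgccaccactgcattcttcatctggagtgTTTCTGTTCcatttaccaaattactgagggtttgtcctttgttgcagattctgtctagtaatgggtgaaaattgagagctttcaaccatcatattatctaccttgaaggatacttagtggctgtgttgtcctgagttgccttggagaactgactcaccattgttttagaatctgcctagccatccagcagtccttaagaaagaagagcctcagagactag
Isg15 promoter: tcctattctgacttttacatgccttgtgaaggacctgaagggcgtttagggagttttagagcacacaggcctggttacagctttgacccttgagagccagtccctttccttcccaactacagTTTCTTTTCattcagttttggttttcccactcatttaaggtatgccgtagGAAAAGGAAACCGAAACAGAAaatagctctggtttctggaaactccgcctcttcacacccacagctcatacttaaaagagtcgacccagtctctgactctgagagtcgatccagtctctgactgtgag
The H2-K1 stretch lies at chr17:34000298-34000597 (minus strand) and the H2-T23 stretch at chr17:36032652-36032951 (minus strand). Trim34a lies at chr7:104244207-104244506 and Trim34b at chr7:104329221-104329520, both on the plus strand, and Isg15 at chr4:156200769-156201068 on the minus strand. GAAANNGAA matched 3 times in Isg15, 1 time each in H2-T23, Trim34a and Trim34b, and 0 times in H2-K1. GAANNGAAA matched 2 times in Trim34b, 1 time each in H2-K1, Trim34a and Isg15, and 0 times in H2-T23, with matches of the 2 stretches overlapping in Trim34a and the 3 GAAANNGAA matches of Isg15 overlapping each other.

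The same windows were counted across the members. GAAANNGAA was in 2317 of 27025 promoters (8.57%) and GAANNGAAA in 2044 (7.56%). Of the 350 member genes, 231 matched a promoter, and 29 of them (12.6%) held GAAANNGAA and 19 (8.23%) held GAANNGAAA. Of 72 genes on members lower in 2D11, 45 matched a promoter, of which 10 (22.2%) held GAAANNGAA and 5 (11.1%) held GAANNGAAA. Of 24 genes on members higher in 2D11, 20 matched, of which 2 (10%) held GAAANNGAA and 1 (5%) held GAANNGAAA. These shares are descriptions of letters in a window, over genes that share families, and the stretches were chosen with the values known. The genes of a member were often unlike upstream of their transcripts: in 37 pairs with both promoters, aligned identity was at least 90% in 6 and under 60% in 24. The pairs under 60% included genes that share no family name, such as Cog8 and Pdf (49.7%) or Jak3 and Insl3 (50.1%). They also included relatives, such as Klrb1b and Klrb1c (47.9%). Aligned identity was 98.0% for Hba-a2 and Hba-a1, 93.4% for Gzme and Gzmd, 85.9% for H2-T-ps and H2-T23, and 52.4% for Trim34b and Trim34a. The value for Trim34b and Trim34a lies near those of Cog8 and Pdf and of Jak3 and Insl3. No baseline of unrelated sequences was made, so an identity near these values cannot be read as shared sequence.

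Members leaned towards lower values in 2D11. A total of 31 (20.1%) were lower and 9 (5.84%) were higher, so 40 (26%) passed, against 4.06% of all probe sets (2.05% lower and 2% higher). Single-symbol probe sets with a span of at least 1, which the range selects in the same way, gave 18%, with 10.2% lower and 7.82% higher. The median difference was -0.46 over the members, -0.16 over those single-symbol probe sets and 0.01 over all probe sets. Groups did not overlap in 93 members (60.4%), 64 of them lower and 29 higher, or 41.6% and 18.8%. All probe sets gave 20.3%, with 8.54% lower and 11.7% higher, and single-symbol probe sets with that span 58.2%, with 30.3% lower and 27.9% higher. The comparison of the members with the rest was not tested. Of the 40 that passed, 38 differed by at least 1 on the log2 scale, 30 lower and 8 higher.

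Class I MHC molecules present peptides to CD8 T cells and NK cells, and the class I family held both the widest member and the member that names Qa-1. The probe set H2-Q5;H2-K1 (1451593_at), naming the classical class I gene H2-K1 and its relative H2-Q5, stood at 4.48, 4.69 and 4.21 on 2D11 replicates 1, 2 and 4. On the OvacD8 arrays it stood at -4.21, -4.23 and -4.22. The groups lay far apart and each was tight, with a difference of 8.69 ± 0.13 (limma adjusted p = 5.91e-05), which also passed in each of 6 fits that left out 1 array. Probe sets that name either gene alone did not move as far. The 4 single-symbol probe sets of H2-K1 lay between -0.45 and 0.03 and did not pass (lowest adjusted p = 0.308). The 2 probe sets of H2-Q5 alone stood at -0.53 and 1.35, the latter with an adjusted p of 0.0642.

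H2-T23 encodes the heavy chain of Qa-1, the molecule that the 2D11 cells are described as recognising. Its probe set with the pseudogene H2-T-ps (1419658_at) stood at -2.06, -1.72 and -1.71 on the 2D11 arrays and at 1.71, 2.42 and 2.46 on the OvacD8 arrays. All OvacD8 arrays were higher, with a difference of -4.03 ± 0.24 (adjusted p = 0.00286). A second probe set of the same symbols (1449556_at) was lower, at -1.51 ± 0.12 (adjusted p = 0.00656). Both passed in all 6 leave-one-out fits and in the split-adjusted fit. The size of the change thus differed by 2.52 on the log2 scale between probe sets that name the same genes.

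The remaining class I members did not pass. H2-T9;H2-T22;H2-T10, naming class Ib genes some of whose products bind gamma delta T cell receptors, stood at -1.83 ± 0.32 on 1439121_at (adjusted p = 0.0547) and at -1.39 on 1449875_s_at, where groups did not overlap either. Without OvacD8 replicate 1 both passed, at -2.13 (adjusted p = 0.0118) and -1.78 (adjusted p = 0.0195). Gm38417;LOC547349;H2-Bl stood at 0.67 (adjusted p = 0.226). Of the 6 class I members 1 was higher and 2 were lower. Among 29 single-symbol probe sets of class I genes, of which 9 spanned at least 1, 4 were higher and 1 was lower. All probe sets gave 2% higher and 2.05% lower, and single-symbol probe sets spanning at least 1 gave 7.82% and 10.2%. The class II member H2-DMb2;H2-DMb1, naming a chaperone of peptide loading, stood at 1.00 on OvacD8 replicate 1 and between -0.04 and 0.06 on the other 5 arrays. The class II invariant chain gene Cd74 was also highest on that array, at 2.15 against -1.25 and -1.19 on OvacD8 replicates 2 and 3. The class II gene H2-Ab1 did not follow it, with OvacD8 replicate 1 below both on 1451721_a_at (0.27 against 1.85 and 2.10) and on 1425477_x_at, and at 1.52 against 1.11 and 1.47 on 1450648_s_at. Csf1r, the receptor of macrophages for M-CSF, stood on OvacD8 replicate 1 at 2.92 (1419872_at), 0.15 and 0.43 on its 3 probe sets. In the split-adjusted fit the H2-DMb difference passed (-1.01, adjusted p = 0.00437). The part of other cells in the H2-DMb value was not tested.

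Among interferon-induced antiviral genes, all 8 members had negative differences and 1 passed. Of all 154 members, 94 (61.0%) had negative differences and 26% passed, against 4.06% of all probe sets. The 8 overlap in genes, since 4 name Csprs and 2 name Trim34b;Trim34a. Gm4070;Gvin1, described below, was not placed in this family by the symbol patterns. TRIM34 proteins belong to the tripartite motif family, which restricts viruses. The probe set Trim34b;Trim34a (1421550_a_at) stood at -1.54, -1.52 and -1.33 on the 2D11 arrays and at 1.33, 2.01 and 1.88 on the OvacD8 arrays. The difference was -3.20 ± 0.20 (adjusted p = 0.00318) and passed in all 6 leave-one-out fits. The other probe set of the same symbols (1426092_a_at) stood at -1.18 ± 0.31 (adjusted p = 0.151). Trim34a alone gave -6.31 ± 0.03 on 1424857_a_at (adjusted p = 2.16e-06) but 0.89 on 1426093_at (adjusted p = 0.254), so probe sets of this gene pointed both ways.

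The neighbouring relatives Trim30d and Trim30a were measured on shared and on single-symbol probe sets. Trim30d;Trim30a stood at -0.80 ± 0.40 (adjusted p = 0.456), with OvacD8 replicate 1 at -0.16 within the 2D11 range of -0.39 to 0.16. Trim30d alone was lower, at -5.71 ± 0.35 (1435665_at, adjusted p = 0.00298) and -4.71 ± 0.22 (1438716_at, adjusted p = 0.00127), and Trim30a alone stood at -1.58 and -1.01 and did not pass. Across 62 single-symbol probe sets of this family 11 were lower and 0 were higher, with a median of -0.25. The median was -1.06 over the 8 members, which were chosen by span, whereas 29 of the 62 spanned at least 1. The 2 medians therefore come from unlike sets. Of all probe sets, 2.05% were lower, and of single-symbol probe sets spanning at least 1, 10.2%.

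Isg15, a ubiquitin-like protein attached to others after interferon, split the OvacD8 arrays. Its probe set with the pseudogene Gm9706 (1431591_s_at) stood at -0.25, -0.05 and -0.25 on the 2D11 arrays and at 0.05, 3.69 and 3.62 on OvacD8 replicates 1, 2 and 3. OvacD8 replicate 1 stood with 2D11, and the difference of -2.63 ± 1.09 did not pass (adjusted p = 0.348). Without that array it was -3.84 (adjusted p = 0.000547), and in the split-adjusted fit -0.23 (adjusted p = 0.441). Gm9706 alone (1453939_x_at) spanned 0.08. The 4 members that name Csprs, which the family pattern placed here, lay between -1.37 and -0.60 and did not pass. Without OvacD8 replicate 1, 2 of them did, 1435792_at at -1.76 (adjusted p = 0.00166) and 1422141_s_at at -1.37 (adjusted p = 0.00553). The first also passed in the split-adjusted fit (-0.60, adjusted p = 0.0466).

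Ifi200 proteins, among them sensors of DNA, are encoded by a cluster of interferon-induced genes. Here 2 of 4 members and 6 of 11 single-symbol probe sets were lower, and 0 of either were higher, where 2.05% of all probe sets and 10.2% of single-symbol probe sets spanning at least 1 were lower. The probe set LOC100862473;Ifi203-ps;Ifi203 (1448775_at) stood at -1.28, -1.46 and -1.25 on the 2D11 arrays and at 1.25, 1.49 and 1.56 on the OvacD8 arrays. It was lower, at -2.76 ± 0.11 (adjusted p = 0.000768) in this and all 6 leave-one-out fits. A second probe set of the same 3 symbols (1425008_a_at) pointed the other way, at 0.71, 0.26 and 1.62 against -0.83, -0.26 and -1.34, a difference of 1.67 ± 0.46 that did not pass (adjusted p = 0.162). Ifi203 alone (1442828_at) stood at -0.23.

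The wider set Mndal;Ifi211;Ifi205;Ifi204 (1452348_s_at) was lower, at -1.50 ± 0.23 (adjusted p = 0.0399). It passed in 1 of 6 leave-one-out fits (largest adjusted p = 0.141, without OvacD8 replicate 2), and its adjusted p was 0.0581 without OvacD8 replicate 1 and 0.106 in the split-adjusted fit. Mndal alone was lower, at -1.18 and -1.22 on its 2 probe sets, while Ifi204 alone stood at 0.01. Ifi211;Ifi205 (1452349_x_at) stood at -0.70 (adjusted p = 0.243; -0.44 and 0.0132 without OvacD8 replicate 1, -1.20 and 0.00431 in the split-adjusted fit). Of 23 symbol combinations found on more than 1 member, 51 members in all, the Ifi203 combination was the 1 whose members had both signs, and the other 22 each had a single sign.

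Outside these immune families, the lowest member named thymosins, small proteins that bind actin monomers. Tmsb15b2;Tmsb15l (1455213_at) stood at -2.74, -2.40 and -2.74 on the 2D11 arrays and at 2.85, 2.40 and 2.51 on the OvacD8 arrays. The gap between the groups was wide against the spread in either, with a difference of -5.21 ± 0.16 (adjusted p = 0.000427). Next came the ribosomal protein set Rpl17-ps9;Rpl17-ps10;Gm10362;Rpl17 (1453752_at), at -2.51, -2.46 and -1.86 against 1.86, 2.34 and 2.56. Its difference was -4.53 ± 0.27 (adjusted p = 0.00268). Both passed in all 6 leave-one-out fits.

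Other ribosomal members were closer to 0. Of 7, 2 were lower and 1 higher, where single-symbol probe sets spanning at least 1 gave 10.2% lower and 7.82% higher. Of 118 single-symbol probe sets of ribosomal proteins 5 were lower and 2 higher, with a median of 0.003. All probe sets gave 2.05% lower and 2% higher. The Rpl29 set with 3 gene models (1436046_x_at) was lower, at -0.81 ± 0.10 (adjusted p = 0.0205), in 1 of 6 leave-one-out fits (largest adjusted p = 0.0954, without OvacD8 replicate 2) and not in the split-adjusted fit (adjusted p = 0.0673). Rps19-ps3;Rps19 (1460442_at) was higher by 1.50 ± 0.25 (adjusted p = 0.048), with 2D11 at 0.95, 0.49 and 1.43 and OvacD8 between -0.57 and -0.49. Its adjusted p was 0.0643 without OvacD8 replicate 1. Rps19 alone (1449243_a_at) stood at -0.02. Gm10224;Rpl15 stood at 0.94 and did not pass (adjusted p = 0.167; 1.21 and adjusted p = 0.0143 without OvacD8 replicate 1).

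Ly6C is a surface protein of memory and effector T cells and of monocytes. Ly6c2;Ly6c1 (1421571_a_at) stood at -1.46, -1.41 and -1.28 on the 2D11 arrays and at 1.28, 1.57 and 1.47 on the OvacD8 arrays, with no overlap. The difference was -2.82 ± 0.09 (adjusted p = 0.000561). Apol7e;Apol7b (1436271_at), naming apolipoprotein L genes, was lower, at -2.82 ± 0.14 (adjusted p = 0.00146), at -1.54, -1.23 and -1.40 against 1.64, 1.42 and 1.23. Both passed in all 6 leave-one-out fits. Neither had a single-symbol probe set of its own genes.

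Lectin-like receptors of the NK gene complex were named by 2 members, both with negative differences. Klrc2 and Klrc3 encode NKG2C and NKG2E, which pair with CD94 and can bind Qa-1. Klrc3;Klrc2 (1421795_s_at) stood at -0.70, -1.36 and -1.18 on the 2D11 arrays and at 0.72, 0.70 and 0.83 on the OvacD8 arrays, and was lower, at -1.83 ± 0.18 (adjusted p = 0.0124). Klrc3 alone stood at 0.04 and Klrc2 alone at 0.44, neither of which passed. The call held in 3 of 6 leave-one-out fits (largest adjusted p = 0.0683, without OvacD8 replicate 2) and not in the split-adjusted fit (adjusted p = 0.0586). Klrb1b;Klrb1c (1449570_at), naming receptors of the NK1.1 group, stood at -0.93 ± 0.16 (adjusted p = 0.0518; -1.07 and adjusted p = 0.0195 without OvacD8 replicate 1). Of 36 single-symbol probe sets of this family, of which 6 spanned at least 1, 3 were lower and 0 were higher. All probe sets gave 2.05% lower and 2% higher, and single-symbol probe sets spanning at least 1 gave 10.2% and 7.82%.

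The Ugt1a locus makes glucuronosyltransferases, enzymes that attach a sugar acid to drugs and bilirubin, from alternative first exons joined to shared later ones. Its 3 members name the same 8 genes, which overlap on chromosome 1. The widest (1426260_a_at) stood at -1.80, -1.10 and -2.77 on the 2D11 arrays and at 1.10, 2.19 and 2.36 on the OvacD8 arrays. It was lower, at -3.77 ± 0.56 (adjusted p = 0.0374), but in 1 of 6 leave-one-out fits (largest adjusted p = 0.148, without OvacD8 replicate 2) and not in the split-adjusted fit (adjusted p = 0.131). The others stood at -3.02 ± 0.60 (adjusted p = 0.075) and -2.32 ± 0.51 (adjusted p = 0.0959), and passed without OvacD8 replicate 1 (adjusted p = 0.00963 and 0.00213). The last also passed in the split-adjusted fit (-1.22, adjusted p = 0.0359).

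Named genes that share probe sets with gene models or pseudogenes formed a group of 27 members, of which 6 were lower and 2 higher. Single-symbol probe sets spanning at least 1 gave 10.2% lower and 7.82% higher, and all probe sets 2.05% and 2%. Gon4l, a nuclear factor needed for B cell development, shares 1431314_a_at with 5830417I10Rik. That probe set was lower, at -2.41 ± 0.24 (adjusted p = 0.0125; 3 of 6 leave-one-out fits, largest adjusted p = 0.0636, without 2D11 replicate 2). Gon4l alone stood at 0.38. HJURP loads the centromere histone CENP-A, and its 3 members with the same 2 gene models were all lower. Their differences were -2.12 ± 0.19, -2.01 ± 0.18 and -1.35 ± 0.17, with adjusted p-values of 0.00918, 0.00989 and 0.025. The first did not pass without OvacD8 replicate 2 (adjusted p = 0.0563), the second passed in all 6 fits (largest adjusted p = 0.0486), and the third in 1 (largest adjusted p = 0.105, without OvacD8 replicate 2).

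PISD is the mitochondrial enzyme that makes phosphatidylethanolamine. Its pseudogenes were named by 6 members, which lay between -1.44 and -0.97, with 4 lower. The member that also names Pisd itself (1426387_x_at) was lower, at -1.20 ± 0.09 (adjusted p = 0.00615), at -0.62, -0.83 and -0.50 against 0.57, 0.50 and 0.56. Pisd alone (1460585_x_at) stood at -0.36 (adjusted p = 0.31), and 4 of the 5 single-symbol probe sets of Pisd-ps3 were lower, with all 5 between -3.78 and -1.21. Among the 4 that passed, 1435353_a_at (-1.44) and 1426387_x_at passed in all 6 leave-one-out fits. The other 2 (1436944_x_at and 1439070_x_at) passed in 2 fits each (largest adjusted p = 0.0979, without OvacD8 replicate 2, and 0.0579, without OvacD8 replicate 3).

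Further members lower in 2D11 lay in small families. Tmem254b;Tmem254c;Tmem254a (1428738_a_at), naming membrane proteins, was lower, at -2.62 ± 0.29 (adjusted p = 0.0162; 2 of 6 leave-one-out fits, largest adjusted p = 0.0857, without OvacD8 replicate 2), while Tmem254a alone stood at -0.18. H2aw;Trim17 (1435865_at), a histone gene and a tripartite motif gene, was lower, at -1.69 ± 0.25 (adjusted p = 0.0367). Tmem35b;Zmym6 (1438685_at) was lower, at -1.42 ± 0.16 (adjusted p = 0.0176). These last 2 did not pass in the split-adjusted fit (adjusted p = 0.0675 and 0.0527), and passed in 1 and 2 of 6 leave-one-out fits (largest adjusted p = 0.127, without OvacD8 replicate 3, and 0.0799, without 2D11 replicate 1). Gm4070;Gvin1 (1429184_at), naming a very large interferon-inducible GTPase, was lower, at -1.21 ± 0.09 (adjusted p = 0.00528) and passed in all 6.

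Apart from H2-Q5;H2-K1, members higher in 2D11 were smaller in size. Gm40469;6820431F20Rik;2610005L07Rik (1435267_at), which names gene models, stood at 0.58, 0.69 and 0.69 on the 2D11 arrays and at -0.87, -0.58 and -0.97 on the OvacD8 arrays. It was higher by 1.46 ± 0.11 (adjusted p = 0.00578). Probe sets of 2610005L07Rik alone numbered 8, of which 4 were higher and 1 was lower. Gm4724 and related gene models (1436462_at) were higher by 0.87 ± 0.07 (adjusted p = 0.00695). These 2 passed in all 6 leave-one-out fits.

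Tcte3 encodes a dynein light chain of the testis, and both of its members with Gm3448 and Gm3417 were higher. The first (1421683_at) stood at 1.41, 0.67 and 0.77 against -0.67, -1.61 and -1.58, a difference of 2.23 ± 0.35 (adjusted p = 0.0421). The second (1421682_a_at) was higher by 1.28 ± 0.17 (adjusted p = 0.0266). Vmn2r103;Vmn2r96 (1438124_at), naming pheromone receptors, was higher by 1.77 ± 0.22 (adjusted p = 0.0219), at 1.30, 0.60 and 0.97 against -1.05, -0.60 and -0.79. Noct encodes nocturnin, a circadian enzyme that acts on nicotinamide cofactors. Its probe set with Sgip1 and Cog6 (1448715_x_at) was higher by 1.25 ± 0.12 (adjusted p = 0.0108), and Noct alone by 1.15 (adjusted p = 0.0328), whereas 5 probe sets of Sgip1 and 1 of Cog6 lay between -0.17 and 0.06.

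The last member on this side was Gm20605;Sap25;Lrch4 (1424879_at), at 0.42, 0.53 and 0.70 against -0.42, -1.09 and -0.81. Its difference was 1.32 ± 0.19 (adjusted p = 0.0348). Of the 9 members higher in 2D11, 5 passed after quantile normalization and 4 in the split-adjusted fit (H2-Q5;H2-K1, and the sets named for 2610005L07Rik, Gm4724 and Noct). The largest leave-one-out adjusted p was 0.172 for Rps19-ps3;Rps19 and 0.15 for the wider Tcte3 set, both without OvacD8 replicate 2. It was 0.0883 for Vmn2r103;Vmn2r96 without 2D11 replicate 4. Without 2D11 replicate 2 it was 0.127 for the Lrch4 set, 0.109 for the second Tcte3 set and 0.0568 for the Noct set.

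Families named by a shared root, 30 members, held 12 lower and 1 higher, with a median difference of -1.08, where single-symbol probe sets spanning at least 1 gave 10.2% and 7.82%. Of these 30, 16 shared a symbol with another member. The 13 members made of gene models held 0 lower and 2 higher, with a median of 0.94. The 6 splicing and RNA-binding sets split into 3 positive and 3 negative differences, and 0 passed. Without OvacD8 replicate 1 those that name Hnrnpa1 and Hnrnpa3 did (-1.12 and 1.28, adjusted p = 0.0318 and 0.0234). Among the 6, Rbm3-ps;Rbm3 (1429169_at), naming a cold-induced RNA-binding protein, stood at 1.52 ± 0.31 (adjusted p = 0.0831; 1.84 and adjusted p = 0.00781 without OvacD8 replicate 1). Hmgn2, a nucleosome-binding protein named with 3 gene models (1433507_a_at), stood at 1.61 ± 0.30 (adjusted p = 0.0662; 1.92 and adjusted p = 0.0061 without that array). Small RNA genes and their hosts gave 3 members and no call, although Mir5130;Kctd12 (0.77, adjusted p = 0.331) passed without OvacD8 replicate 1 (1.11, adjusted p = 0.00638). Mir92-1;Mir17hg, the host of the miR-17 cluster of proliferating cells, stood at 0.00 with OvacD8 replicate 1 highest at 0.92.

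Probe sets with exactly 1 symbol were set beside the shared probe sets of the same genes. They are no standard for a gene, since those of Trim34a pointed both ways. Of the 154 members, 75 had at least 1 single-symbol probe set of an own gene, 150 such probe sets in all and 205 pairings. The sign was the same in 148 pairings. In 36 of the 205 the single-symbol probe set spanned under 0.1, so its sign says little. A single-symbol probe set was counted again for each member that names its gene. In 40 pairings both differed by at least 1 in size, and in all 40 the sign was the same, with 25 of these from 5 Pisd members. Of the 70 members that differed by at least 1, 31 had such a probe set, and 14 of the 31 had a probe set of at least 1 with the same sign. Among the 14 was H2-Q5;H2-K1, through H2-Q5 at 1.35 and not through H2-K1.

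A second group of members separated OvacD8 replicates 2 and 3 from the other 4 arrays. When each member was split at its widest gap, 48 (31.2%) split by the labelled groups, 45 (29.2%) set OvacD8 replicates 2 and 3 apart, and 15 (9.74%) set OvacD8 replicate 1 alone. Single-symbol probe sets spanning at least 1 gave 24.8%, 27.9% and 11.8%. Besides Isg15, the hemoglobin genes of red cells showed this split. Hba-a2;Hba-a1 (1428361_x_at) stood between -0.15 and 0.03 on the 2D11 arrays and OvacD8 replicate 1, and at 4.42 and 4.10 on OvacD8 replicates 2 and 3. A second probe set of the same alpha globin genes (1452757_s_at) gave 3.93 and 4.08 on those 2 arrays, and the beta globin set with Hbb-b1 (1417184_s_at) gave 2.17 and 3.19. The rest lay within 0.02 of 0.

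None of the globin members passed (-2.92, -2.68 and -1.80, with adjusted p-values of 0.387, 0.395 and 0.419). Without OvacD8 replicate 1 all 3 did, at -4.34, -4.01 and -2.69 (adjusted p = 0.000913, 0.00022 and 0.0208). Probe sets of Hba-a2, Hba-a1 and Hbb-b2 alone spanned 0.05 to 0.41, and Alas2, the heme synthesis gene of red cell precursors, spanned 0.05. The part of red cells in the globin values was not tested. In the split-adjusted fit the differences were -0.06, -0.01 and -0.01.

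The CCL27 and Gapdh sets showed the same split. The CCL27 sets, naming a skin-homing chemokine and its copies, stood at 1.62 and 2.21 (1430375_a_at) and at 1.77 and 2.35 (1419188_s_at) on OvacD8 replicates 2 and 3, against -0.39 to 0.19 on the other 4 arrays. Without OvacD8 replicate 1 both passed (-2.19 and -2.12, adjusted p = 0.0111 and 0.011). The other member of the chemokine and cytokine family, Tnfrsf22;Tnfrsf23 (1442590_at), did not behave in this way. Its difference of -0.75 (adjusted p = 0.398) was smaller in size without OvacD8 replicate 1, at -0.42 (adjusted p = 0.421). Gapdh-ps15;Gapdh (1447999_x_at), naming a glycolytic enzyme, stood at 1.77 and 1.67 on OvacD8 replicates 2 and 3 and between -0.38 and 0.01 elsewhere. It passed without OvacD8 replicate 1 (-1.93, adjusted p = 0.00533). The array's own Gapdh control probe sets for the 3′ end, the middle and the 5′ end moved with it. They lay between 1.39 and 1.77 on those 2 arrays and between -0.32 and 0.16 on the other 4. The spike-in controls were lowest on the same 2 arrays, as given above, and their part in these values was not tested.

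OvacD8 replicate 1 lay at least 1 from both other OvacD8 arrays in 35 members, above them in 9 and below in 26. It lay at least 1 below all 5 other arrays in 5 members and above all of them in 2. Granzymes D and E are proteases of cytotoxic granules, and Gzme;Gzmd (1421227_at) stood at -0.72, 1.36 and -0.61 on the 2D11 arrays and at -6.43, 0.61 and 0.64 on the OvacD8 arrays. No other member had OvacD8 replicate 1 as far from both other OvacD8 arrays. The difference of 1.74 ± 2.22 did not pass (adjusted p = 0.847), and it was -0.61 (adjusted p = 0.759) without that array. Gzme alone and both probe sets of Gzmd alone showed the same array at -5.38, -7.18 and -7.75.

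Astx3;Astx6;Astx5 (1444668_at), naming X-linked testis genes, went the other way, with OvacD8 replicate 1 at 3.93 and the other 5 arrays between -0.06 and 0.30. Its difference of -1.25 (adjusted p = 0.77) was -3.87 (adjusted p = 0.00434) in the split-adjusted fit. Astx3 alone (1447461_at) spanned 0.03. The histone set H2bc8;H2bc6;H2bc4 (1418072_at) took 3 levels. OvacD8 replicate 1 stood at 1.76, the 2D11 arrays between -0.02 and 0.12, and OvacD8 replicates 2 and 3 at -1.56 and -1.53. Its difference of 0.49 did not pass (adjusted p = 0.928), became 1.59 without OvacD8 replicate 1 (adjusted p = 0.00118), and turned to -1.72 in the split-adjusted fit (adjusted p = 0.00309). A second probe set of the same histone genes (1445565_at) held OvacD8 replicate 1 at 0.00, and its difference of 0.62 (adjusted p = 0.305) became 0.86 without that array (adjusted p = 0.0241). Jak3;Insl3 (1423021_s_at), the first of which encodes the kinase of gamma chain cytokine receptors, stood at -1.76 on that array and between -0.16 and 0.37 elsewhere, and Jak3 alone (1425750_a_at) at -1.61. The Jak3;Insl3 difference of 0.67 (adjusted p = 0.742) was 1.85 in the split-adjusted fit (adjusted p = 0.0345).

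A few members split the 2D11 arrays instead. In 6 members (3.90%, against 1.37% of single-symbol probe sets spanning at least 1), 2D11 replicates 1 and 4 stood above all others. These members overlap in genes, since 2 name the same 18 genes and the 1700049E17Rik1 sets share symbols. The set of X-linked testis genes that names Ott (1427346_at) stood at 2.15 and 1.82 on these arrays, and at -0.04 on 2D11 replicate 2. The 1700049E17Rik1 sets stood at 2.01 and 1.79 (1430323_at) and at 1.72 and 1.99 (1430324_x_at), against -0.01 and -0.28 on 2D11 replicate 2. The 18-gene set led by Gm4297 stood at 1.06 and 1.83 against 0.02 (1422618_x_at), and at 0.86 and 1.25 against -0.06 (1422617_at). The lack of agreement within the group went with wide errors, and no member of this kind passed.

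The calls leaned on single arrays to different degrees. Of the 40 members that passed, 15 passed in every leave-one-out fit, 2 in 5 of 6, 2 in 3, 8 in 2 and 13 in 1. Leaving out any array but OvacD8 replicate 1 left 15 to 19 members lower and 3 to 7 higher. Without OvacD8 replicate 1, 59 were lower and 26 higher, among them 30 of the 31 and 8 of the 9. Over all probe sets that fit raised the count from 1827 to 4773. In the split-adjusted fit 26 of the 40 passed with the same sign. Of the other 114 members 9 passed in it, 1 of them (1418072_at, above) with its sign turned. Of the 114 members that did not pass, 53 had groups that did not overlap, and differences among them ran from -3.02 to 2.28.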

How the data were processed

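Expression was measured on 6 mouse arrays, with RNA extracted by RNeasy, amplified with the Ovation V2 system and labelled with biotin, per the labels' protocols. The log2 values were made by the authors with RMA, per the submitters' processing notes, whose version was not stated. They were deposited with each probe set centred on its median over the arrays (within 5e-07 of 0). The base is not given in the sources used here; the widest probe set spans 11.37, above the natural log of a 16-bit range (11.09). RMA draws dim probe sets together, so differences near background are understated, and 3 arrays per group limit the precision.

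Of 45101 probe sets, 64 controls were left out, and 9160 had no symbol in the platform's annotation, which can be old. Groups and numbers came from the sample titles. The fit used limma 3.58.1 in R 4.3.3 (lmFit and eBayes, two-sided, Benjamini-Hochberg, 0.87 prior degrees of freedom) and was tested on simulated data. Other steps ran in Python 3.11.15 with pandas 2.3.3, numpy 2.4.6 and Biopython 1.88, whose global alignment gave promoter identity.

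The members, families, motifs and lists were chosen with earlier results of these data known, and the pattern that separates class I from class II symbols was corrected after the values were seen. Families came from symbol patterns. The rule for naming took 12 members per direction with the largest differences among those that passed without overlap. It also took the 3 widest of each family of 2 or more and the 6 on which OvacD8 replicate 1 lay farthest from its group. The single-symbol probe sets of all these, the 4 on each side of the span limit and the cell markers completed it. Members it took that are not described above include H2bu1-ps;H2bu2, Adam1a;Mapkapk5 (0.57), the Pramel3 set (0.58) and Mir3069;Scarna13. None of these passed over all arrays. H2bu1-ps;H2bu2 stood at -1.48 (adjusted p = 0.102) and passed without OvacD8 replicate 1 (-1.80, adjusted p = 0.0184). Named outside this rule, after their values were seen, were the second probe sets of H2-T23, H2-T9, Trim34b and Hjurp, the Pisd sets, the Rpl29, Gvin1, Trim30d, Csprs, Hmgn2, H2-DMb, Ifi211;Ifi205, H2-Bl, Gapdh, Jak3, Gm4297 and 1430323_at sets, and the Gapdh controls. Alternatives were 6 fits with an array left out, a block for the replicate number, robust variances, quantile normalization, subtracted array medians, a span of at least 0.1, a size of at least 1, and a split-adjusted fit (the spike-in split as a covariate).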

Additional observations from a re-analysis of the deposited data

How the results depend on the processing

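Leaving out 1 array at a time gave 3 to 26 members higher in 2D11 (9 over all arrays), 15 to 59 lower (31) and 811 to 4773 of all probe sets (1827), in each case with the highest count without OvacD8 replicate 1. Counts of members higher fell to 5 after quantile normalization and to 5 in the split-adjusted fit, 5 and 4 of them among the 9. Restricting the fit to probe sets spanning at least 0.1 raised the count over all probe sets to 2962. Of the 57 named members, 4 turned sign under some alternative, 1 of them in a fit where it passed: H2bc8;H2bc6;H2bc4 (1418072_at) stood at -1.72 in the split-adjusted fit (adjusted p = 0.00309). The others were Gzme;Gzmd and Astx3;Astx6;Astx5 without OvacD8 replicate 1 (-0.61 and 0.06) and Mir92-1;Mir17hg, whose difference was near 0, in 8 fits (down to -0.86). In the split-adjusted fit 10 named members lost their call and 3 gained it with the same sign, while H2bc8;H2bc6;H2bc4 (1418072_at) gained it with its sign turned. Without OvacD8 replicate 1, 2 lost it and 19 gained it. The cause was not tested. The named members were picked in part for large differences. Over all 154 members, 24 (15.6%) turned sign in the split-adjusted fit, 0 of them among the 40 that passed over all arrays. Counts under robust variances (7 and 30), subtracted array medians (7 and 29) and a size of at least 1 (8 and 30) stayed within 1.5 times.

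The groups share the replicate numbers 1 and 2, and nothing says that they pair the samples. Deviations of same-numbered arrays from their group means correlated at -0.03 and 0.21, so the numbers were not treated as pairs. With the replicate number as a block, 2 members were higher, 6 were lower and 229 of all probe sets passed. In that fit 2D11 replicate 4 and OvacD8 replicate 3 have no partner, so replicates 1 and 2 alone give the difference. The lower counts thus go with the loss of those arrays from the comparison and do not show how far pairing matters. Array weights were tried and left out, because their estimate did not converge. Signal over background cannot be read from centred values, so what limits a small difference, a low signal or an equal one, cannot be told apart here.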
